A study of Mus musculus with 2 samples.

Results

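Meningeal and perivascular fibroblasts are the collagen-producing cells of the membranes around the brain and of the sheaths of its larger vessels. They were picked here by raw counts of unique molecular identifiers (UMIs) in single-cell RNA sequencing of the newborn mouse cerebellum. A barcode was kept if it showed 500 or more genes and no more than 10% of its UMIs were mitochondrial. A fibroblast had at least 5 UMIs of Col1a1 and Col1a2 together, at least 2 of Col3a1, at most 1 of the endothelial gene Cldn5, and at most 1 of the mural cell genes Rgs5 and Kcnj8 together. This gave 237 fibroblasts among 16547 kept barcodes, 37 of 8194 in the Cxcr4+/1013 library and 200 of 8353 in the Cxcr4+/+ library.

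The series holds 1 library of each genotype, Cxcr4+/1013 and Cxcr4+/+, both from lobules III-IV of the cerebellum at postnatal day 1, from strain B6.129S2-Cxcr4tm1.1Bala, with papain dissociation and droplet capture by 10X Genomics 3' v3.1 chemistry. The 1013 allele is a germline truncation of the C-terminal tail of the receptor CXCR4, so that every cell type of the mutant carries it, and it models a dominantly inherited human immunodeficiency. The genotype label reads Cxcr4+/1013, whereas the extraction protocol reads Cxcr4+/-, and the genotype label was followed. How many animals were pooled is not stated in the labels, and with 1 library per genotype no difference carries a test, a p-value or an error between animals.

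Fibroblasts of the meninges lie in the pia, arachnoid and dura, and deposit the basement membrane to which the end feet of glia attach. In the developing cerebellum they secrete CXCL12, the ligand of CXCR4, which holds dividing granule cell progenitors in the outer layer under the pia. They also release retinoic acid, bone morphogenetic proteins and insulin-like growth factors to the tissue beneath them.

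The marker genes fit the label in both libraries. Dcn, which encodes the small proteoglycan decorin and was not used in the choice, had a UMI in 37 of 37 mutant and 197 of 200 control fibroblasts. Cxcl12, also outside the rule, had one in 37 of 37 mutant and 194 of 200 control fibroblasts. The genes that stood highest over the other kept barcodes of the same library were 20 in number, at 212- to 4867-fold in the mutant and 200- to 747-fold in the control library. Besides collagens they held Slc22a6, an organic anion transporter, Slc6a13, a transporter of GABA and taurine, Lum, which encodes the proteoglycan lumican, Aldh1a2, the enzyme that makes retinoic acid, Edn3, a secreted endothelin, and the transcription factor genes Tbx18 and Osr1. The gap junction genes Gjb2 and Gjb6 were also among them. Markers of the dura and periosteum were nearly absent, with a summed level of 24.5 CPM (counts per 1000000 UMIs of the fibroblasts) in the mutant and 41.8 CPM in the control, and with 6 of the 12 genes at 0 in the mutant and 3 at 0 in the control. The barcodes carried genes of the pia, arachnoid and vessel sheath, and no list separated the perivascular from the meningeal cells.

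The rule itself set the levels of 3 collagens, which are given as a description. The sum of Col1a1 and Col1a2 had a median of 70 UMIs per cell in mutant fibroblasts, from 5 to 163, and 67.5 in control fibroblasts, from 5 to 181. Col3a1 had a median of 59 UMIs in mutant cells, from 8 to 237, and 59 in control cells, from 2 to 183. Just inside the threshold, 1 mutant and 5 control fibroblasts had 5 or 6 UMIs of the first pair, and just outside it 1 mutant and 5 control barcodes had 3 or 4. A larger group of 33 mutant and 58 control barcodes had enough UMIs of the first pair but only 0 or 1 of Col3a1, and their median of Dcn and Lum together was 0 UMIs in both libraries. A further 5 mutant and 16 control barcodes failed on Rgs5 and Kcnj8, and 2 mutant and 8 control barcodes on these and Cldn5 at once.

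The stretches just before the start sites of 2 of the rule's collagen genes and of Cxcl12 are shown because these genes mark the cells. Each is the 250 bases upstream of the RefSeq start, on the plus strand of GRCm38.p6, at chr6:4505368-4505617 for Col1a2, chr1:45311288-45311537 for Col3a1 and chr6:117168285-117168534 for Cxcl12. Capitals mark the CCAAT box, the TATAAA box and the GC box GGGCGG, searched on both strands, so that CCGCCC is the GC box read on the other strand.
Col1a2: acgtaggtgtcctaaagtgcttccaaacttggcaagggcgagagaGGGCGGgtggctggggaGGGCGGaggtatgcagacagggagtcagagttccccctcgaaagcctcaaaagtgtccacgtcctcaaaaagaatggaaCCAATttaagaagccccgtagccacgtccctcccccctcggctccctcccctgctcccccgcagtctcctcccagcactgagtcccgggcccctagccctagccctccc
Col3a1: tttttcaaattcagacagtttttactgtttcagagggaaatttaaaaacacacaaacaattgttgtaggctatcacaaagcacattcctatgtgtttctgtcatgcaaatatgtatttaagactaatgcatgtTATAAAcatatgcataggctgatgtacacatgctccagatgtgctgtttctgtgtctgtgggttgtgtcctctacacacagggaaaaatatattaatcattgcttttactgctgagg
Cxcl12: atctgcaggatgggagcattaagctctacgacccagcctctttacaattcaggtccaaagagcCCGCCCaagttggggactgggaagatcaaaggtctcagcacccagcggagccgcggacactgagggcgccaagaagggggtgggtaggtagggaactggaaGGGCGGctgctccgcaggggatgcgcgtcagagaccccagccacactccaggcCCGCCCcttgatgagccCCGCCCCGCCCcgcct
Col1a2 held a CCAAT box at -109 and GC boxes at -205 and -188, Col3a1 held TATAAA at -117, and Cxcl12 held GC boxes at -187, -86, -33, -16 and -11, of which the last 2 overlap, counted from the RefSeq start. Among 32851 windows of 250 bases, 33.8% held CCAAT, 12.4% TATAAA and 32.7% GGGCGG, so that none of these letters is rare. In the GENCODE annotation of the same genome, the gene Col1a2 begins at 4504814, so its window lies inside the longest gene model.

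Fibroblasts were about 5 times scarcer in the mutant library. They made up 0.452% of kept barcodes there (37 cells, exact 95% interval 0.318 to 0.622%), against 2.39% in the control (200 cells, 2.08 to 2.75%). The ratio of mutant to control shares was 0.189 (0.129 to 0.269), and these intervals, like all below, cover counting error only. Split by sex-linked transcripts, female cells gave 12 of 3447 mutant and 94 of 3834 control barcodes, a ratio of 0.142 (0.0708 to 0.260). Male cells gave 12 of 3507 mutant and 55 of 2842 control barcodes, a ratio of 0.177 (0.0862 to 0.334). The shortage was therefore present in the female and in the male cells, though which animals they came from is not known. Barcodes with both or neither kind of sex-linked transcript are in neither group, and both ratios lie below that of all fibroblasts.

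**Figure D1:**
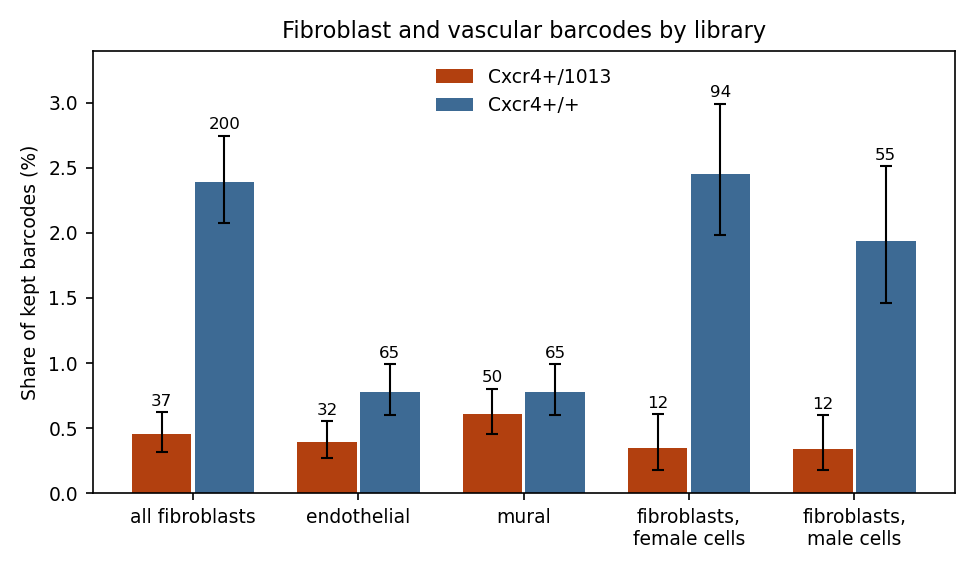
Share of kept barcodes (%) for fibroblasts, endothelial and mural barcodes, and for fibroblasts among female and male cells, in the Cxcr4+/1013 and Cxcr4+/+ libraries. Bars show the share, error bars the exact 95% counting interval and the number above each bar the cells counted. The fibroblast bars stand at 0.452% in the mutant and 2.39% in the control, a wider gap than for endothelial or mural barcodes.

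The vascular neighbours were closer between the libraries. Endothelial barcodes, with at least 3 UMIs of Cldn5, numbered 32 in the mutant and 65 in the control, a ratio of 0.502 (0.318 to 0.778), and this interval lies above that of the fibroblasts. Mural barcodes, with at least 3 UMIs of Rgs5 and Kcnj8, numbered 50 in the mutant and 65 in the control, a ratio of 0.784 (0.531 to 1.15). That ratio became 0.473 when barcodes needed 1000 genes and at most 5% mitochondrial UMIs. The median depth of mural barcodes was 29978 UMIs in the mutant and 16122 in the control, and over all deposited barcodes the level of Rgs5 was 0.486 and that of Kcnj8 0.542 times the control level.

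The whole-library counts, which need no rule on cells, showed the same scarcity. Over all deposited barcodes Dcn stood at 11.5 CPM in the mutant and 71.7 CPM in the control, a ratio of 0.160 (0.152 to 0.169). For Lum the ratio was 0.196, for Slc6a13 0.201, for Slc22a6 0.205, for Aldh1a2 0.167 and for Igf2, a fetal growth factor, 0.161. Apart from Igf2, these genes and Dcn are among the 20 most enriched in the chosen fibroblasts, so their choice was not free of the rule. The Igf2 ratio mixes cell number with level, as Igf2 stood at 0.659 times the control level within fibroblasts. They held 61.8% of its UMIs in the mutant and 84.3% in the control library. The chosen fibroblasts held 94.8% of all Dcn UMIs in the mutant and 95.2% in the control library, so few Dcn UMIs lay outside the rule in either one. Of the barcodes that failed the barcode filter, 15 of 1357 in the mutant and 31 of 1233 in the control had a UMI of Dcn or Lum. Barcodes that met the collagen and vascular criteria but failed the barcode filter numbered 2 in the mutant and 3 in the control.

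Depth and quality of the fibroblasts were close between the libraries. Their median depth was 17284 UMIs in the mutant and 16156 in the control, with 5081 genes in the mutant and 4786 in the control, and 4.14% mitochondrial UMIs in the mutant and 4.41% in the control. All mutant fibroblasts together held 693125 UMIs and all control fibroblasts 3562570. The libraries held 130429500 UMIs in 9551 mutant barcodes and 120003656 in 9586 control barcodes, and of 25 barcode sequences present in both, 0 belonged to a fibroblast. Scrublet, a doublet caller, marked 7 of the 37 mutant and 35 of the 200 control fibroblasts. How many meningeal cells entered each suspension, in dissection or dissociation, was not measured and cannot be told apart from the genotype.

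Fibroblasts carried almost the same amount of Cxcl12 per cell in both libraries. Cxcl12, on chromosome 6 from 117168535 to 117181367 (GRCm38, plus strand), had 1338 UMIs or 1930 CPM in mutant fibroblasts (95% interval 1828 to 2037) and 7241 UMIs or 2033 CPM in control fibroblasts (1986 to 2080). The log2 ratio of mutant to control was -0.07 (-0.16 to 0.01), and -0.09 without the cluster with neural transcripts described below. Per cell, scaled to 10000 UMIs, the level had a median of 21.4 in the mutant, from 1.99 to 51.8, and 23.0 in the control, from 0 to 59.6. The 2 ranges overlap over nearly their whole length. After each cell was thinned to 2000 UMIs, 34 of 36 mutant fibroblasts (94.4%) and 181 of 196 control fibroblasts (92.3%) kept a Cxcl12 UMI. In the granule cell lineage, which serves as the background of stray RNA, the thinned share was 4 of 587 (0.681%) in the mutant and 3 of 418 (0.718%) in the control, with median depths of 19860.5 UMIs in the mutant and 18178 in the control.

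What differed was how much of each library's Cxcl12 lay in these cells. Over all deposited barcodes Cxcl12 reached 29.9 CPM in the mutant and 78.8 CPM in the control library, a ratio of 0.380 (0.366 to 0.394). Fibroblasts held 34.3% of the Cxcl12 UMIs of the mutant library and 76.5% of those of the control library. In the kept barcodes that were not fibroblasts the level was 19.9 CPM in the mutant and 18.9 CPM in the control. Endothelial barcodes had 103 CPM in the mutant (101 UMIs in 12 of 32 cells) and 32.2 CPM in the control (57 UMIs in 18 of 65 cells).

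The receptors of CXCL12 were scarce in fibroblasts. Cxcr4 had 10 UMIs in 4 mutant cells, 14.4 CPM, and 39 UMIs in 23 control cells, 10.9 CPM. Outside the cluster with neural transcripts, described below, it had 0 UMIs in 25 mutant and 15 in 168 control fibroblasts. These 3' counts cannot separate transcripts of the 1013 allele from wild-type ones. In the granule lineage Cxcr4 stood at 64.8 CPM in the mutant and 66.2 CPM in the control. Ackr3, the atypical scavenging receptor of CXCL12, had 5 UMIs in mutant and 20 in control fibroblasts.

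Across all genes, most levels in fibroblasts lay within 1.5-fold of each other in the 2 libraries. Summed UMIs were compared for 6844 genes that reached 100 UMIs when both libraries were added, and a gene was called when its levels lay at least 1.5-fold apart, as a description by size. By this call 502 genes were higher in mutant fibroblasts (7.33%) and 375 lower (5.48%), with a median log2 ratio of 0.03. The counting interval lay above 0 for 466 of the 502 and below 0 for 238 of the 375. In the other kept barcodes, where many more cells were summed, 47 of the 6844 genes were higher past 1.5-fold and 190 lower. Calls were 57.2% higher and 42.8% lower, whereas TMM factors gave 41.8% higher and 58.2% lower and DESeq2 size factors 45.6% higher and 54.4% lower, so the balance of directions is set by the scaling. Among the 20 genes most enriched in fibroblasts, 1 was called higher, Fam180a at 43.3 CPM in the mutant and 25.8 CPM in the control, and 0 were called lower. In the mutant a single cell held 30.0% of the Fam180a UMIs, and its log2 ratio without the cluster described next was 0.94.

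One cluster of fibroblasts, marked by neural transcripts, took a larger part of the mutant cells, at 12 of 37 in the mutant against 32 of 200 in the control. For the genes called below, the value without that cluster, from 25 mutant and 168 control fibroblasts, is therefore given too. There 5173 genes reached 100 UMIs, of which 346 were higher (6.69%) and 353 lower (6.82%). Of the genes called over all fibroblasts, 280 of the 502 higher and 194 of the 375 lower ones still lay past 1.5-fold.

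**Figure D2:**
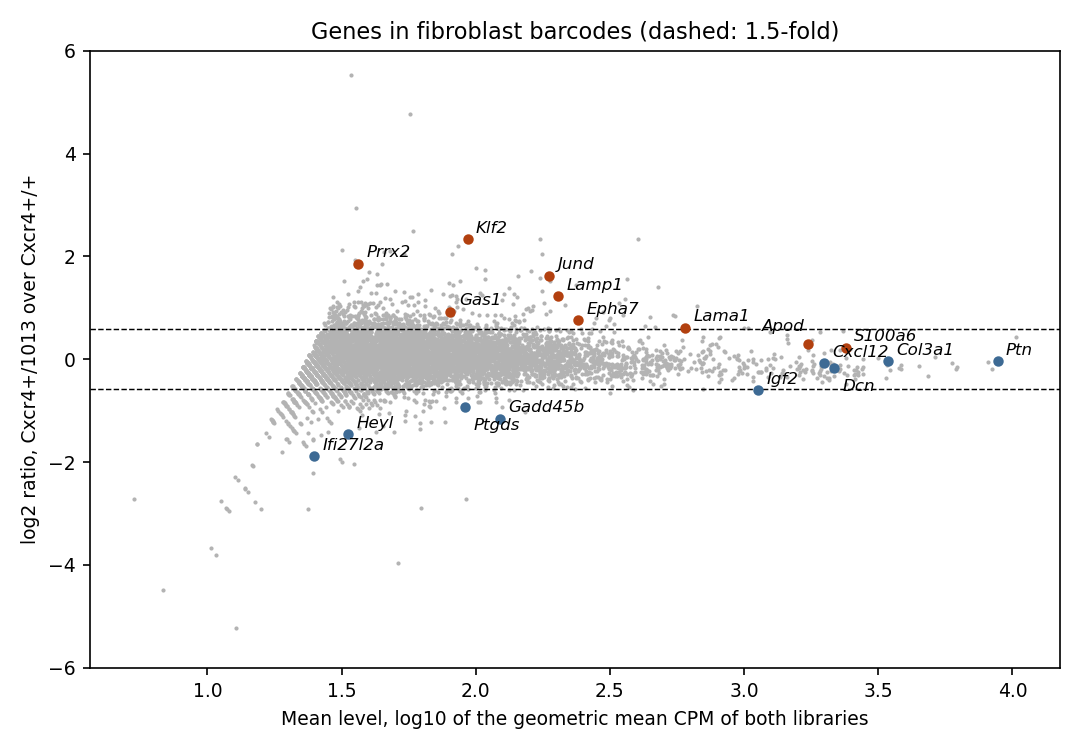
Log2 ratio of Cxcr4+/1013 over Cxcr4+/+ fibroblasts (vertical axis) against the mean level of both libraries (horizontal axis, log10 CPM) for the genes tested, with named genes in colour and dashed lines at 1.5-fold. For genes with a level under 1 CPM, 1 CPM was used on the horizontal axis. Abundant genes such as Ptn, Dcn and Cxcl12 lie near 0, and the spread widens towards low levels.

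Collagens outside the rule were seldom called. Of the 40 collagen genes left after its 3, 21 were tested, of which 0 were called higher and 1 lower, beside 7.33% higher and 5.48% lower over all genes. Their median log2 ratio was 0.05, against 0.03 over all genes. Without the cluster with neural transcripts 20 were tested, with 0 higher, 1 lower and a median of 0.10. The network collagens of the basement membrane, Col4a1 and Col4a2, had log2 ratios of 0.05 and 0.11, with Col4a1 at 1399 CPM in mutant and 1350 CPM in control fibroblasts. Col6a1, a chain of the beaded microfibrils, stood at 359 CPM in the mutant and 428 CPM in the control. The collagen called lower, Col9a2, had 10 UMIs in the mutant and 112 in the control, a log2 ratio of -1.12 (-2.22 to -0.19), and -0.44 without the cluster with neural transcripts. Dcn had 2050 CPM in mutant and 2299 CPM in control fibroblasts, and Lum had 654 CPM in mutant and 605 CPM in control fibroblasts.

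Of 13 basement membrane genes tested, 1 was called higher and 0 lower, beside 7.33% higher and 5.48% lower over all genes. The called gene was Lama1. It encodes an alpha chain of the laminin laid down under the pia, lies on chromosome 17 from 67697259 to 67822647 (GRCm38, plus strand), and had 518 UMIs or 747 CPM in mutant fibroblasts and 1735 UMIs or 487 CPM in control fibroblasts. Its log2 ratio was 0.62 (0.47 to 0.76), and 0.75 without the cluster with neural transcripts. In the other kept barcodes of the libraries the log2 ratio was -0.05. The per-cell median was 6.75 UMIs per 10000 in the mutant, from 0 to 40.2, and 4.10 in the control, from 0 to 23.1. The single highest cell held 12.7% of the mutant Lama1 UMIs. The other 12 basement membrane genes tested were not called, among them Lama2 (log2 ratio -0.29), Lamb1 (-0.39), Nid1 (-0.12) and Sparc (-0.26).

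Enzymes and inhibitors that process the matrix gave 4 lower genes of 20 tested and 0 higher ones, beside 5.48% lower and 7.33% higher over all genes. Without the cluster with neural transcripts 2 of 20 were lower and 1 higher, Plod2, a lysyl hydroxylase, at 0.80. Mmp2, a gelatinase, had 56.3 CPM in mutant and 86.5 CPM in control fibroblasts (log2 ratio -0.62, -1.14 to -0.14), and Htra1, a secreted serine protease, 64.9 CPM in the mutant and 98.5 CPM in the control (-0.60, -1.08 to -0.15). Both stayed past 1.5-fold without the cluster with neural transcripts, at -0.63 and -0.59. Adamts1 (-0.71) and Plod1 (-0.65), another lysyl hydroxylase, had -0.28 and -0.14 there. Serpinh1, the chaperone of collagen folding, was at 938 CPM in both. Of 20 proteoglycans and glycoproteins tested, 1 was called higher, Tnc, at 54.8 CPM in the mutant and 35.4 CPM in the control, with 47.4% of the mutant UMIs in a single cell and a log2 ratio of 0.73 without the cluster.

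Lists of the meningeal layers had few calls. In the pial list 1 of 6 genes was called higher, Lama1, and the median log2 ratio was 0.20. S100a6, a calcium-binding protein and the most abundant gene of that list, had 2587 CPM in mutant and 2208 CPM in control fibroblasts (log2 ratio 0.23, and 0.04 without the cluster with neural transcripts). In the arachnoid list 2 of 6 genes were called lower, beside 5.48% over all genes, and the median was -0.32. Of 5 tested without the cluster with neural transcripts 1 was lower, with a median of -0.27. Ptgds, the brain's prostaglandin D synthase, had 66.4 CPM in the mutant and 126 CPM in the control (log2 ratio -0.93, and -0.35 without the cluster), and 50% of its mutant UMIs lay in 1 cell. Aebp1, a collagen-binding protein, had 24.5 CPM in the mutant and 46.6 CPM in the control (-0.93, and -0.88 without the cluster). Slc6a13, the most abundant of that list, was at 590 CPM in the mutant and 544 CPM in the control. Among perivascular genes 0 of 7 were called, and Apod, a lipid carrier, had 1919 CPM in the mutant and 1554 CPM in the control (log2 ratio 0.30, and 0.54 without the cluster).

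**Figure D3:**
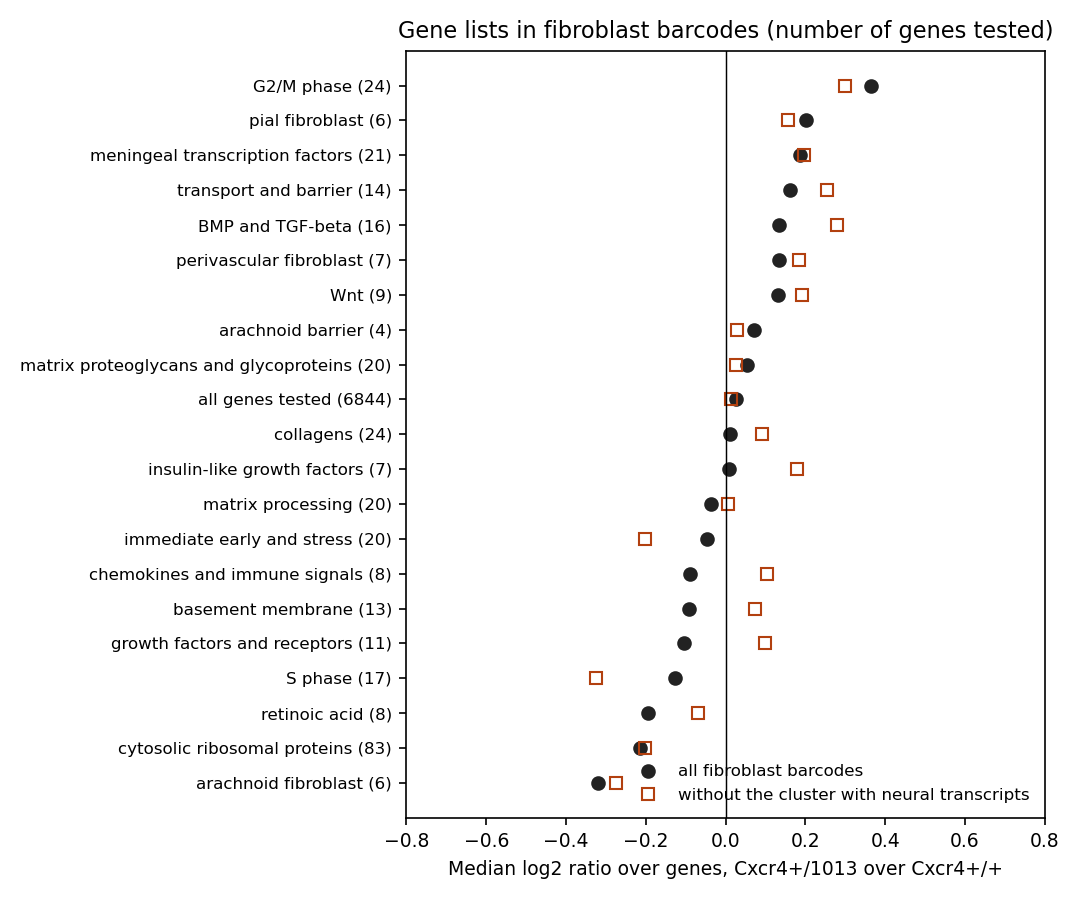
Median log2 ratio of Cxcr4+/1013 over Cxcr4+/+ fibroblasts over the tested genes of each list (number in brackets), for all fibroblasts (filled circles) and without the cluster with neural transcripts (open squares, genes with 100 UMIs in those cells). Lists with fewer than 4 tested genes and the markers of other cell types are left out, and the collagen list includes the 3 genes of the rule. Among the lists drawn, G2/M genes are highest at 0.36 and arachnoid genes lowest at -0.32 over all fibroblasts.

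Among secreted signals, Igf2 was lower in the mutant. Igf2, on chromosome 7 from 142650766 to 142666816 (GRCm38, minus strand), had 633 UMIs or 913 CPM in mutant fibroblasts and 4936 UMIs or 1386 CPM in control fibroblasts, a log2 ratio of -0.60 (-0.72 to -0.48). The per-cell median was 8.75 UMIs per 10000 in the mutant, from 0 to 24.9, and 13.5 in the control, from 0 to 121. In the other kept barcodes the log2 ratio was -1.36. Mural barcodes had 108 CPM of Igf2 in the mutant and 217 CPM in the control. Endothelial barcodes went the other way, at 24.5 CPM in the mutant (24 UMIs) and 8.48 CPM in the control (15 UMIs). In fibroblasts without the cluster with neural transcripts the log2 ratio of Igf2 was -0.40 (-0.54 to -0.26), short of 1.5-fold. Igf1 was called lower too, at 26 UMIs in the mutant and 282 in the control (-1.08), but had -0.08 without that cluster. Igfbp2, an abundant binding protein of these factors, had 1868 CPM in the mutant and 1757 CPM in the control. In all, 2 of 7 genes of this family were called lower, beside 5.48% over all genes, and 0 higher. Without the cluster 0 of 7 were called.

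The retinoic acid list had 1 lower gene of 8 tested, beside 5.48% over all genes, and a median of -0.19. Of 6 tested without the cluster with neural transcripts 0 were called, with a median of -0.07. Aldh1a2 had 149 CPM in mutant and 182 CPM in control fibroblasts, with a log2 ratio of -0.29 (-0.60 to 0.01), and -0.12 without the cluster. The called gene was Cyp26b1, which degrades retinoic acid, with 9 UMIs in the mutant and 109 in the control (-1.24). Its level rests on few cells, since 1 cell held 66.7% of the mutant UMIs, 1 mutant and 50 control UMIs were left without the cluster, and the log2 ratio was 1.21 without Scrublet doublets. Cyp26b1 was also at least 2-fold higher in the cluster with neural transcripts than in the other fibroblasts. Summed over the list the mutant level was 0.819 times the control level (0.767 to 0.873).

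Of 16 genes of the BMP and TGF-beta pathways, 2 were called higher, beside 7.33% over all genes, and 0 lower. Bmp2, a ligand, had 90.9 CPM in the mutant and 55.9 CPM in the control (log2 ratio 0.70, 0.27 to 1.12), and Tgfbr1, a receptor, 105 CPM in the mutant and 62.3 CPM in the control (0.76, 0.36 to 1.14). Without the cluster with neural transcripts the ratios were 0.40 and 0.47, and of 14 genes 0 were called higher and 1 lower, Id1, a target of BMP signalling, at -0.95. The ligands Bmp5, Bmp6 and Bmp7 had 0.39, 0.03 and 0.23 over all fibroblasts. In the Wnt list, Sfrp1, a secreted antagonist, was called higher at 60.6 CPM in the mutant and 30.0 CPM in the control (1.01, 1.17 without the cluster, and 0.69 in the other kept barcodes), and Nkd2, an intracellular antagonist, was called lower (-0.69, -1.54 to 0.06), with -0.45 without the cluster. Ptn, the growth factor pleiotrophin, was among the most abundant messages at 8713 CPM in mutant and 8898 CPM in control fibroblasts, a log2 ratio of -0.03, and 0 of 11 genes of the growth factor list were called.

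Of 14 transport and barrier genes, 1 was called lower, Ptgds, and 0 higher. Slc1a3, a glutamate transporter, had 1659 CPM in the mutant and 1265 CPM in the control (log2 ratio 0.39, 0.30 to 0.48, and 0.53 without the cluster with neural transcripts), against -0.46 in the other kept barcodes. Slc7a11, the cystine exchanger, had 669 CPM in the mutant and 519 CPM in the control (0.37). In the arachnoid barrier list 0 of 4 genes were called, and Cdh1, the epithelial cadherin of that layer, had 0 UMIs in the mutant and 2 in the control.

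Of the chemokines and immune signals, 8 genes were tested, with a median log2 ratio of -0.09, and 0 were called higher. Ccl2, a monocyte attractant under the minimum of 100 UMIs, is added after its values were seen. It had 1 UMI in mutant fibroblasts and 91 UMIs in 18 control fibroblasts, a log2 ratio of -4.15 (-9.47 to -1.63), with 25.3% of the control UMIs in 1 cell.

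Of 21 meningeal transcription factor genes, 2 were called higher and 2 lower, shares near the 7.33% higher and 5.48% lower over all genes. Prrx2, a homeobox gene of embryonic mesenchyme on chromosome 2 from 30834972 to 30881251 (GRCm38, plus strand), had 69.3 CPM in mutant and 19.1 CPM in control fibroblasts, with a UMI in 23 of 37 mutant and 53 of 200 control cells. Its log2 ratio was 1.86 (1.29 to 2.41), 1.81 without the cluster with neural transcripts, and 0.57 in the other kept barcodes. Zic2, a zinc finger gene, was higher by 1.14 on the log2 scale, by 1.32 without the cluster, and by 1.02 in the other kept barcodes. Heyl, a target of Notch signalling, was lower at 20.2 CPM in the mutant and 55.3 CPM in the control (-1.45), with -1.80 without the cluster and -1.41 in the other barcodes. Ebf1, a helix-loop-helix factor, had -1.02, and -0.19 without the cluster. Foxc1, known for its role in meningeal development, and Tbx18, a factor of mesenchyme and mural cells, had log2 ratios of 0.41 and 0.35.

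Of the genes picked for being higher in mutant fibroblasts, the one whose interval lay farthest from equality was Klf2, a zinc finger factor best known from blood flow sensing in endothelium, on chromosome 8 from 72319033 to 72321656 (GRCm38, plus strand). It had 145 UMIs or 209 CPM in the mutant and 148 UMIs or 41.5 CPM in the control, in 23 of 37 mutant and 76 of 200 control cells. The log2 ratio was 2.33 (1.99 to 2.67), 2.64 without the cluster with neural transcripts, and 0.76 in the other kept barcodes. The per-cell median was 0.579 UMIs per 10000 in the mutant, from 0 to 31.4, and 0 in the control, from 0 to 3.62. The highest cell held 23.4% of the mutant Klf2 UMIs.

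Further genes picked for being higher were of mixed function. Epha7, a receptor of ephrins, had 315 CPM in the mutant and 186 CPM in the control (log2 ratio 0.76, 0.53 to 0.98), 1.08 without the cluster with neural transcripts and 0.18 in the other barcodes. Zfhx3 (1.10) and Robo1 (0.83), both also expressed by neurons, had 0.03 and 0.12 without that cluster. Camk2n1, an inhibitor of a calcium-dependent kinase, had 0.98 and 0.67 without it. For Lamp1, a lysosomal membrane protein, Tmem165, a Golgi protein, Mtch1, a mitochondrial protein, and Gas1, a membrane protein that binds hedgehog ligands, the ratios were 1.23, 1.03, 0.87 and 0.93 in fibroblasts, 1.32, 0.91, 0.86 and 0.73 without the cluster, and 0.78, 0.69, 1.03 and 0.88 in the other barcodes of the same libraries.

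A shift shared with the rest of the library also covered Jund and Taf10, the tested pair of 7 genes listed because earlier work on these data found them higher in many cell classes of the mutant. Jund, a subunit of the AP-1 transcription factor, had 330 CPM in mutant and 107 CPM in control fibroblasts (log2 ratio 1.63), with 1.52 without the cluster and 1.73 in the other barcodes. Taf10, a subunit of the general transcription machinery, had 67.8 CPM in the mutant and 23.0 CPM in the control (1.56), with 1.79 without the cluster and 1.40 in the other barcodes. Cytosolic ribosomal protein genes had a median log2 ratio of -0.21 in fibroblasts and -0.20 in the other barcodes, with 0 of 83 called. Whether these levels come from genotype or from library preparation cannot be told apart.

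Genes picked for being lower had fewer UMIs. Gadd45b, a stress-inducible gene, had 57 UMIs or 82.2 CPM in the mutant and 652 UMIs or 183 CPM in the control (log2 ratio -1.15, -1.57 to -0.76), -1.43 without the cluster with neural transcripts and -0.85 in the other barcodes. Ifi27l2a, an interferon-induced gene, had 9 UMIs in 6 of 37 mutant cells and 171 in 68 of 200 control cells (-1.89, -3.04 to -0.93), with -1.72 without the cluster and -1.19 in the other barcodes. Nfatc2, a calcium-regulated transcription factor, had 10 UMIs in the mutant and 139 in the control (-1.44, -1.40 without the cluster, and -0.82 in the other barcodes), with 30% of the mutant UMIs in 1 cell. Eva1c, Tex14, Stk16 and Ptrhd1 had 5 to 12 UMIs in the mutant and log2 ratios between -2.07 and -1.41, -3.49 to -1.72 without the cluster, and in the other barcodes between -0.48 and -0.02. For Tex14, Stk16 and Ptrhd1 the level was above that of the other barcodes in the control alone. They therefore met the condition on level for this pick only through the library where they were higher. In 1 cell lay 40% of the mutant Eva1c UMIs. Immediate early genes had 3 higher calls of 20, Jund, Klf2 and Klf4, beside 7.33% over all genes, with a median of -0.05. For Klf4 1 cell held 40% of the mutant UMIs, and its log2 ratio was 0.19 without the cluster and -0.44 in the non-dividing clusters. Without the cluster 2 of 19 were higher and 1 lower, with a median of -0.20. Fos had 785 CPM in the mutant and 687 CPM in the control.

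**Figure D4:**
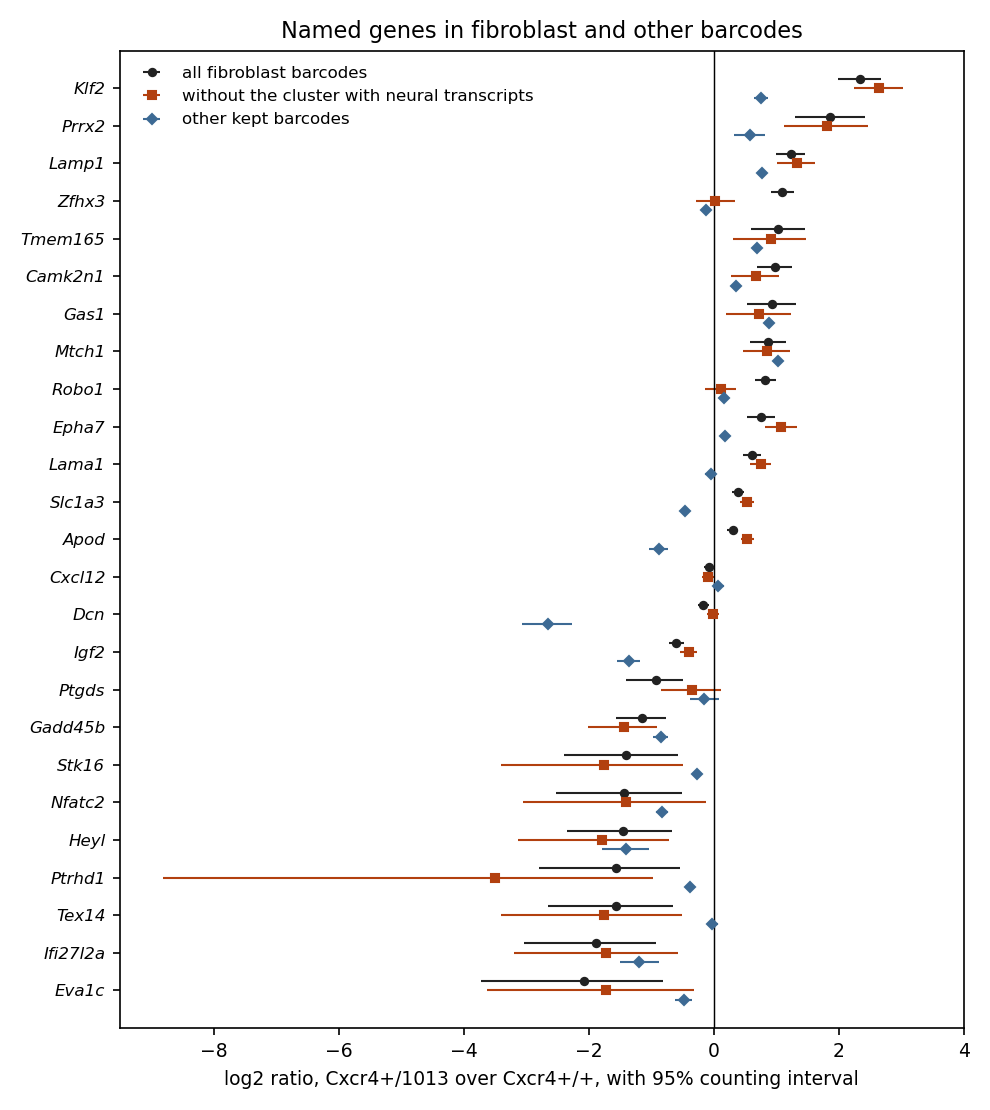
Log2 ratio of Cxcr4+/1013 over Cxcr4+/+ with 95% counting intervals for named genes, in all fibroblasts (circles), without the cluster with neural transcripts (squares) and in the other kept barcodes (diamonds). Klf2, Prrx2 and Lama1 lie higher in fibroblasts than in the other barcodes, while Zfhx3 and Robo1 lie near 0 once the cluster is left out.

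Genes of mitosis leaned upward in mutant fibroblasts. Of 24 tested genes of the G2 and M phases, 7 were called higher and 0 lower, beside 7.33% and 5.48% over all genes, and all 24 had a log2 ratio above 0, with a median of 0.36. Kif11, a spindle motor, had 79.4 CPM in the mutant and 43.2 CPM in the control (0.88, 0.40 to 1.33, and 0.52, -0.17 to 1.16, without the cluster with neural transcripts), and Ccna2, a cyclin, 73.6 CPM in the mutant and 41.3 CPM in the control (0.83, and 0.60 without that cluster). There 4 of 22 were called higher and 0 lower, with a median of 0.30. All 26 genes of the list were at least 2-fold higher in the dividing cluster described below, so their signs are not independent. The list summed to 3394 CPM in mutant and 2096 CPM in control cells of the cluster with neural transcripts. It was 9816 and 7657 CPM in the dividing cluster, 388 and 320 CPM in the first and 465 and 468 CPM in the second. Kif11 had a UMI in 11 of 37 mutant cells and Ccna2 in 10, with 20% and 23.5% of the mutant UMIs in 1 cell. Of 17 genes of the S phase, 0 were called higher and 1 lower, Pcna, the sliding clamp of DNA synthesis, at 83.7 CPM in the mutant and 130 CPM in the control (-0.63, and -1.18 without the cluster). Without the cluster 3 of 13 S phase genes were lower, beside 6.82% over all genes, and 0 of 13 lay above 0, with a median of -0.33. Cells with a Top2a UMI after thinning to 2000 UMIs were 9 of 36 in the mutant (25%, 12.1 to 42.2%) and 32 of 196 in the control (16.3%, 11.4 to 22.3%), and these intervals overlap.

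Clustering of all fibroblasts without the rule genes gave 4 clusters, each with cells of both libraries. The clusters are named by their leading genes only. The first cluster, 11 mutant and 66 control cells, had Iigp1, Parp3, Fmo4, Gbp6 and Cx3cr1 as its 5 leading genes. Cx3cr1 marks microglia, and the microglial list summed to 200 CPM there and 47.1 CPM in the other fibroblasts. Ptgds reached 254 CPM in this cluster. Of 7 arachnoid genes 3, Crabp2, Ptgds and Aebp1, were at least 2-fold above the other fibroblasts, whereas Slc6a13 and Aldh1a2 were not. So were 1 of 6 pial genes, Lama2, and 1 of 8 perivascular genes, Abca8a. Also past 2-fold were 5 of 43 collagens and 6 of 23 transport and barrier genes, and the share over all genes is not given here. The second cluster, 9 mutant and 63 control cells, had weak leading genes, none above 2.85-fold, among them Agpat2, Agtr2 and Mmp11, and the highest level of S100a6, at 3147 CPM. The fourth cluster, 5 mutant and 39 control cells, held the dividing fibroblasts, led by Troap, Kif23 and Ccnb1, and made up 13.5% of mutant (4.54 to 28.8%) and 19.5% of control fibroblasts (14.2 to 25.7%).

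The cluster with neural transcripts, 12 mutant and 32 control cells, was 32.4% of mutant (18.0 to 49.8%) and 16.0% of control fibroblasts (11.2 to 21.8%). Its leading genes were neuronal adhesion and synapse genes such as Cntn4, Cntn5 and Csmd1, and it carried 9 of 10 granule lineage, 7 of 7 GABAergic, 4 of 7 Purkinje cell and 8 of 10 astroglial genes at 2-fold or more over the other fibroblasts. Scrublet marked 7 of its 12 mutant and 29 of its 32 control cells, and its median depth was 26284 UMIs, the highest of the 4. Its fibroblast genes were lower, with Dcn at 1311 CPM in mutant and 959 CPM in control cells, compared with 2949 CPM in mutant and 3010 CPM in control cells of the first cluster. Barcodes that hold a fibroblast together with a neural cell were not separated from single cells here.

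Within clusters the levels of Cxcl12 stayed close in the 2 largest. In the first cluster the per-cell median was 25.6 UMIs per 10000 in 11 mutant cells and 26.5 in 66 control cells, and in the second cluster 28.3 in 9 mutant cells and 27.5 in 63 control cells. In the dividing cluster it was 11.0 in 5 mutant cells, from 1.99 to 28.2, and 19.3 in 39 control cells, from 10.7 to 29.4. In the cluster with neural transcripts the median of Cxcl12 was 15.2 in 12 mutant cells and 10.0 in 32 control cells. Lama1 was higher in the mutant in each of the 4 clusters by its median, most of all in the first, at 11.2 in mutant and 5.77 in control cells. Igf2 had lower medians in the mutant in 3 of the 4 clusters, at 13.9 in mutant and 19.6 in control cells of the first, and at 4.74 in mutant and 4.70 in control cells of the cluster with neural transcripts.

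**Figure D5:**
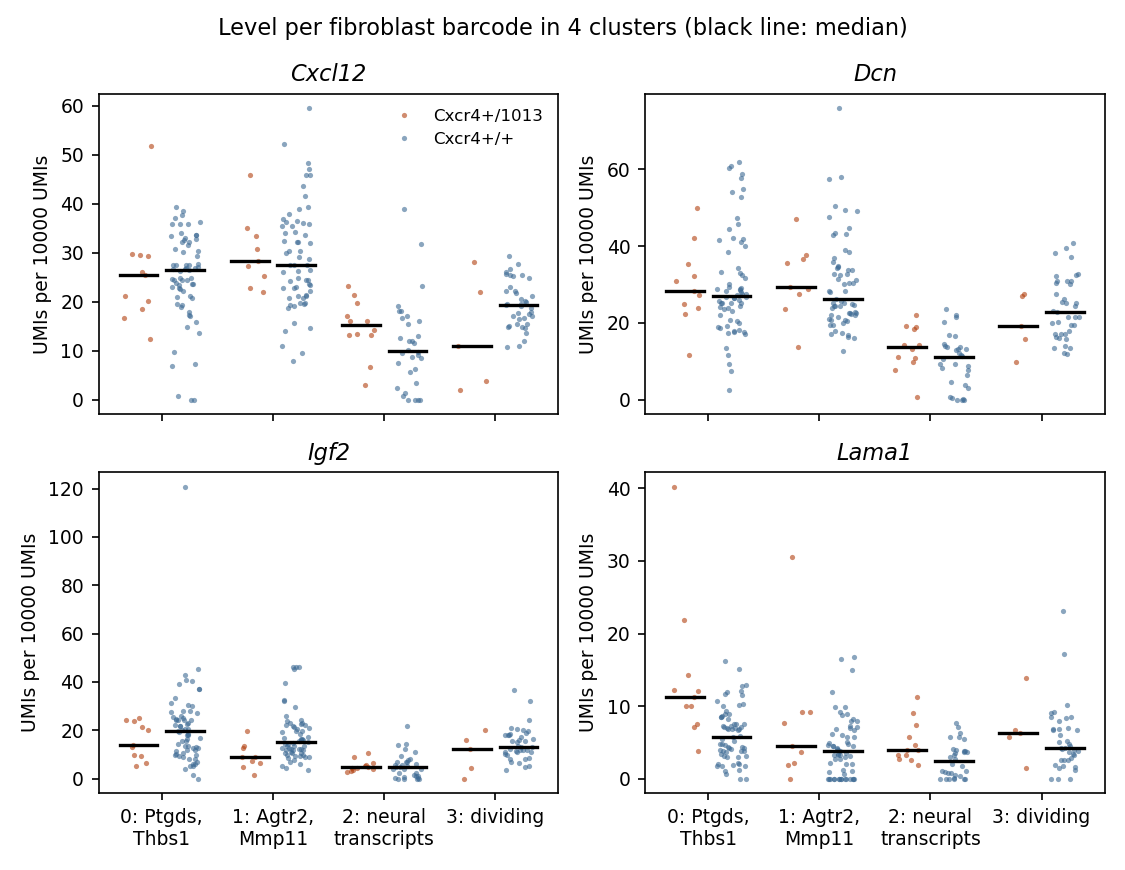
UMIs per 10000 UMIs of Cxcl12, Dcn, Igf2 and Lama1 in each fibroblast (points), by cluster and library, Cxcr4+/1013 left of Cxcr4+/+ in each pair, with black lines at the medians. Cxcl12 and Dcn have similar medians in clusters 0 and 1, and Lama1 has a median of 11.2 in mutant and 5.77 in control cells of cluster 0.

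Some markers of other cell types lay in a few barcodes, whereas others on the same lists were found in most fibroblasts. Astroglial genes summed to 2630 CPM in mutant and 1663 CPM in control fibroblasts. Most of this was Slc1a3, at 1659 CPM in 36 of 37 mutant and 1265 CPM in 188 of 200 control fibroblasts. By contrast, 84.2% of the mutant Fabp7 UMIs and 100% of the Aqp4 UMIs were in a single cell. Purkinje cell genes summed to 436 CPM in the mutant and 808 CPM in the control, where 31.1% of the Calb1 UMIs lay in 1 cell. Haemoglobin Hbb-bs had 161 UMIs in 4 mutant cells, 98.1% of them in 1, and 18 UMIs in 18 control cells. The summed level of granule lineage genes was 1039 CPM in the mutant and 873 CPM in the control. Of this, Zic1 made up 463 CPM in 36 mutant and 373 CPM in 188 control fibroblasts. Endothelial genes summed to 134 CPM in the mutant and 151 CPM in the control, mostly Cdh5, and microglial genes to 85.1 CPM in the mutant and 93.8 CPM in the control. Schwann or neural crest genes summed to 13 CPM in the mutant and 216 CPM in the control, and ependymal or choroid plexus genes to 36.1 CPM in the mutant and 110 CPM in the control. Oligodendrocyte genes summed to 366 CPM in the mutant and 372 CPM in the control. Most of this was Pdgfra, at 346 CPM in 36 mutant and 257 CPM in 175 control fibroblasts. Of the 3 oligodendrocyte genes tested 2 were called lower, beside 5.48% over all genes, with a median log2 ratio of -2.91. The mural list summed to 703 CPM in the mutant and 1011 CPM in the control, mostly Vtn, which fibroblasts made at 574 CPM in the mutant and 855 CPM in the control. Without the cluster with neural transcripts, Aqp4 had 0 UMIs in the mutant and 8 in the control, and the part of these markers in the other gene results was not tested.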

How the data were processed

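The deposited matrices held raw counts of UMIs per gene and barcode, with no normalisation, for 32285 genes. The submitters' processing notes name bcl2fastq 2.20.0.4222, Cell Ranger 7.2 and the build mm10. Neither the annotation nor the treatment of intronic reads is given in these sources. The deposited barcodes all had at least 500 UMIs, so droplets with less RNA were not analysed here.

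The rule on raw UMIs chose the fibroblasts. The members, gene lists and named genes were chosen with earlier results of these data known. UMIs were summed over fibroblasts per library and scaled to CPM, ratios carry exact conditional binomial intervals, shares Clopper-Pearson intervals and levels Poisson intervals, all at 95%. Intervals were checked on simulated counts. A gene was called at 1.5-fold with at least 100 UMIs over both libraries, and a count of 0 was set to a floor of 3 counts over the library. Named genes were the markers, the 20 most enriched, the 10 higher and 10 lower genes whose interval bound nearest to 1 lay farthest from 1 (no cell with over 25% of the UMIs of the library where the gene is higher, and, with both libraries pooled, at least as high in fibroblasts as in other barcodes), and in each list the 4 largest ratios and the most abundant gene. Genes cited outside this rule come from the lists or the clusters' leading genes and were chosen after their values were seen. Female cells had an Xist UMI and no Y-linked UMI, male cells the reverse. Granule lineage barcodes had at least 2 Atoh1 UMIs. Barcodes were scored with Scrublet (scanpy 1.11.5), removing 0.8% per 1000 deposited barcodes, only as an alternative. Fibroblasts were clustered with 1000 variable genes, 15 components, 15 neighbours and Leiden resolution 0.5. The scaling alternatives used edgeR 4.0.16 and DESeq2 1.42.0. Other alternatives were the barcode filter, rule thresholds, thinning, minimum UMIs, fold, weight of cells and sex.

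Gene positions came from GENCODE M21 (GRCm38), and sequences from RefSeq on GRCm38.p6. Some genes of the lists are not reported here.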

Additional observations from a re-analysis of the deposited data

How the results depend on the processing

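The ratio of fibroblast shares stayed between 0.142 and 0.202 under all 11 alternatives, added ones included. No paired analysis was possible because each genotype has 1 library, and leaving out a library leaves nothing to compare. The log2 ratio of Cxcl12 in fibroblasts was -0.07, and became -0.21 without Scrublet doublets, 0.014 with looser thresholds, -0.17 with the rule after thinning to 5000 UMIs and 0.021 in the non-dividing clusters without neural transcripts, with its cause not tested. The counts of higher and lower genes, 502 and 375, were 889 and 781 at 50 UMIs, 7433 and 2029 with no minimum, 226 and 124 at 200 UMIs, 113 and 103 at 2-fold, and 264 higher in the non-dividing clusters, as the genes and cells compared change with these settings. The mural ratio became 0.473 with the stricter barcode filter, and Leiden resolution 1.0 gave 7 clusters in place of 4. Single-gene signs turned without Scrublet doublets for Zfhx3 (-0.19), Cyp26b1 (1.21) and Igf1 (0.25), with cells under 1% neural UMIs for Tnc (-0.25), and in the non-dividing clusters for Klf4 (-0.44). List medians turned for markers held by few barcodes. The Purkinje list was 0.31 without Scrublet doublets, 0.47 without the cluster with neural transcripts and 0.54 in the non-dividing clusters. The erythroid list was -0.38, -0.93 and -0.74 in the same order and -0.12 with stricter thresholds. Without the cluster and in the non-dividing clusters the oligodendrocyte list was 0.38 and 0.52, and the Schwann list 0.074 and 0.52. These list values include genes with under 100 UMIs in the cells left, and a count of 0 enters at the floor of 3 counts. Without the cluster 2 Purkinje genes reached 100 UMIs, with a median of -0.11 in place of 0.47. The same minimum was met by 1 oligodendrocyte gene and by 0 Schwann, erythroid and GABAergic genes. The astroglial list went from 0.57 to -0.53 with cells under 1% neural UMIs. The GABAergic list went from -0.05 to 0.91 with the same cells and to 1.39 in the non-dividing clusters. The G2/M list had a median of 0.36 over all fibroblasts and 1.46 in the non-dividing clusters. Few UMIs of these genes remain there, and a mutant count of 0 enters at the floor of 3 counts, which raises the ratio. The 1.46 is therefore not read as a rise. The summed list was 388 CPM in mutant and 320 CPM in control cells of the first cluster, and 465 and 468 CPM in the second. Over all named genes and settings, 1128 values lay within the counting interval of the value reported, and 110 outside it with the same sign or uncalled. The alternatives that drop the cluster with neural transcripts or the dividing cells were chosen after seeing the data.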
